A study of Mus musculus with 8 samples.

Results

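Plasma membrane amino acid transporters are the gates through which liver cells take up and exchange the amino acids they burn, store or build into protein. The genes described here are 10 such transporters, Slc7a5, Slc3a2, Slc43a1, Slc7a2, Slc7a11, Slc38a2, Slc38a3, Slc38a4, Slc1a4 and Slc1a5, chosen by symbol among the 53816 gene IDs of each table, with all 10 found once. They were read in 8 whole-liver RNA libraries from mice whose bile duct had been tied off, an operation that holds bile back in the liver and injures it. The control group (4 libraries) is wild type, and the other 4 libraries are labelled as endothelial Myc overexpression, with LSEC, the usual short form for liver sinusoidal endothelial cells, in the genotype label. All 8 are labelled with bile duct ligation, so no unoperated liver is compared. The labels name no driver or transgene for Myc, and no age, sex, strain, time after surgery or pooling, and they do not say that each library is a separate mouse, so p-values measure only the spread between these samples, which may be technical. Expression is in TPM, an abundance scaled for gene length and library size, so that levels can be compared between genes.

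The transporters fall into families that differ in substrate and drive. Slc7a5 (LAT1) carries large neutral amino acids such as leucine and reaches the cell surface only as a dimer with Slc3a2, the heavy chain known as CD98 or 4F2hc, which also pairs with the cystine and glutamate exchanger Slc7a11 (xCT). Slc43a1 (LAT3) carries large neutral amino acids without a partner. Slc7a2 (CAT2) takes up arginine and lysine. Slc38a2 (SNAT2) and Slc38a4 (SNAT4) import small neutral amino acids with sodium, Slc38a3 (SNAT3) moves glutamine and histidine, and Slc1a4 (ASCT1) and Slc1a5 (ASCT2) exchange small neutral amino acids and glutamine. Several of these genes, Slc7a5, Slc3a2, Slc7a11, Slc38a2, Slc1a4 and Slc1a5 among them, are known targets of ATF4, the transcription factor of the amino acid and endoplasmic reticulum stress response. Slc7a11 is also a target of NRF2, the factor of the antioxidant response, and Slc7a5 and Slc1a5 are known targets of Myc.

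Promoter sequences are shown for the members whose start region holds letters of these factors' binding motifs. RefSeq windows of 300 bases (250 before and 50 after the start site, GRCm38.p6, the build also called mm10) matched 6 of the 10 members with 8 windows; Slc7a5, Slc7a2, Slc38a3 and Slc1a5 had no entry. Searched on both strands were TGATGNAA, the core of the composite element bound by ATF4 with C/EBP factors, CACGTG, the E-box of Myc and Max, and TGACNNNGC, the core of the antioxidant response element of NRF2. The motifs do not overlap in the matches shown. Matches lay in 4 members, and capitals mark the matched letters. Each line runs 5′ to 3′ on the gene's strand, and positions are counted from the start site as 0.
Slc7a11 (chr3:50443624-50443743, minus strand, 120 bases): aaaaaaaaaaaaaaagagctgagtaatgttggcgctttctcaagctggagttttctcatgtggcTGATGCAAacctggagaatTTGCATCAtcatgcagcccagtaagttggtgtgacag
Slc1a4 (chr11:20332699-20332728, minus strand, 30 bases): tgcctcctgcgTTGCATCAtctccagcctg
Slc43a1 (chr2:84840248-84840277, plus strand, 30 bases): gggtctccctcCACGTGgcagccgtgggat
Slc38a2 (chr15:96699737-96699766, minus strand, 30 bases): gccccgcccacTGACGCGGCgccccgccgc
The Slc7a11 window held the ATF4 composite letters 2 times, once on each strand, with 11 bases between them, and Slc1a4 held them on the opposite strand across its start site, from -4 to 3. The composite letters occur in 3.97% of all 32851 windows. The E-box of Slc43a1 lay at -64 to -59 of a RefSeq start that is 124 bases from the nearest start in the GENCODE annotation, and all 30 bases shown lie in an annotated exon of the gene; 7.15% of windows hold an E-box. The antioxidant core of Slc38a2 lay at -27 to -19; Slc43a1 held a second match, to this core, at -16 to -8, and 12.4% of windows hold one. These are matches of letters, and binding was not measured here.

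Each library rested on 5.29 to 6.74 Gb of aligned bases, as derived from the deposited coverage and FPKM, with 12442 to 13636 genes at 1 TPM or more. Myc did not follow the group labels, at 89.2 to 554 TPM in the control livers and 25.6 to 356 TPM in the Myc-labelled livers (exact permutation p = 0.8286, two-sided). Whether transcripts of a transgene would be counted under Myc is not known, so these values are of the gene listed as Myc. The lowest value belonged to replicate 3 of the group labelled Myc, and every direction below therefore rests on the labels. Differences were tested with limma on log2(TPM + 1) for the 13055 genes that averaged 1 TPM or more, and p-values were adjusted over all of them (Benjamini-Hochberg, threshold 0.05). No gene passed in either direction, 0% of those tested. At an unadjusted p under 0.05, 165 genes were higher (1.26%) and 78 lower (0.597%), a split that became 164 and 172 after median-of-ratios scaling and 166 and 152 after quantile normalization. With array weights 1 gene passed, on the lower side, and none of the members did.

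The members differed widely in level. Slc38a3 and Slc38a4 stood highest, at a mean over the 8 libraries of 722 ± 133 and 675 ± 90.2 TPM (SD, n = 8), and did not differ beyond their spread, with Slc38a3 above Slc38a4 in 5 of 8 libraries. Slc7a2 followed at 146 ± 26.3 TPM, below Slc38a4 in all 8 libraries. Next came Slc38a2 at 58.0 ± 22.7 TPM and Slc3a2 at 53.7 ± 16.6 TPM, whose ranges overlapped and whose order turned in 4 of 8 libraries. A step down led to Slc43a1 at 9.32 ± 2.69 TPM and Slc1a5 at 6.74 ± 1.91 TPM, then Slc1a4 at 4.25 ± 1.70 TPM, Slc7a5 at 2.26 ± 0.973 TPM and Slc7a11 at 0.912 ± 1.44 TPM, each overlapping its neighbour. Slc38a3, Slc38a4 and Slc7a2 together made up 86.3% to 94.3% of the summed TPM of the 10 members. Of the 20 hepatocyte markers listed, 19 were found, none at 0 in all 8 libraries, with a summed level of 102734 to 164784 of the 1000000 TPM of each library. In whole tissue fewer cells of a type cannot be told apart from less RNA per cell.

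**Figure D1:**
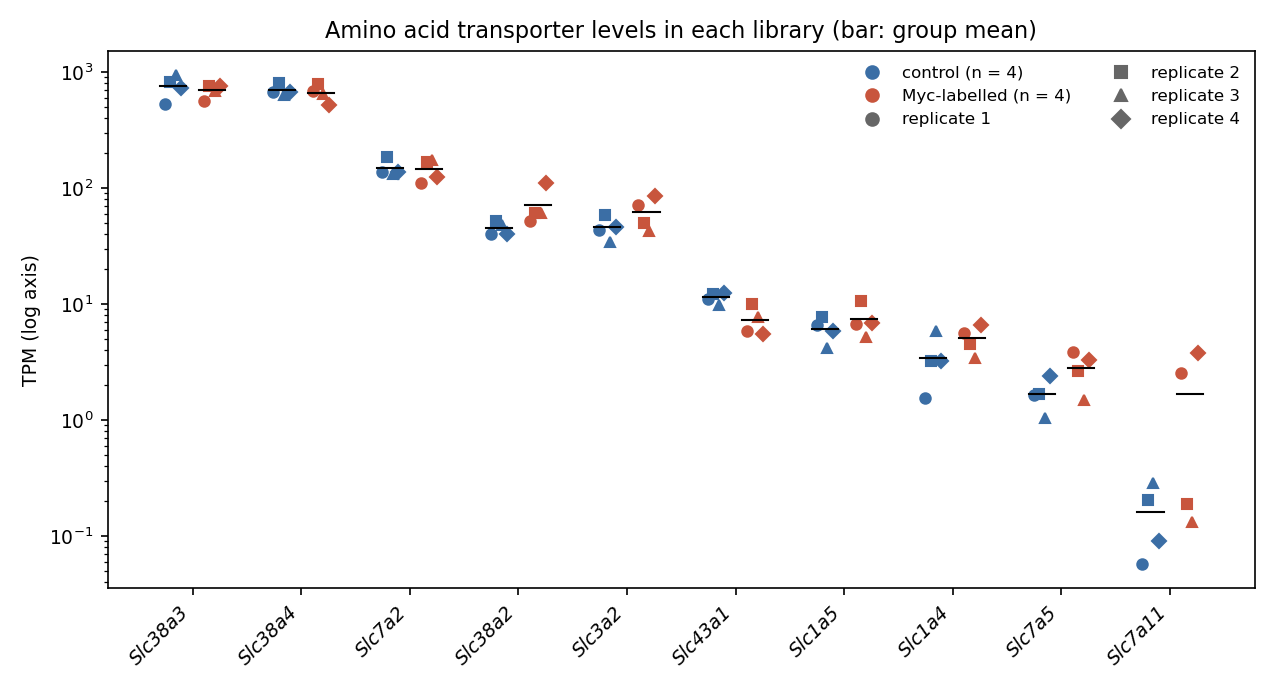
TPM of the 10 transporters (vertical log axis) in each of the 4 control (blue) and 4 Myc-labelled (red) libraries, with marker shape for the replicate number and a bar at the group mean. The members run from means of 722 TPM for Slc38a3 and 675 TPM for Slc38a4 down to Slc7a11, which lies between 0.0575 and 0.289 TPM in 6 libraries and at 2.52 and 3.81 TPM in Myc-labelled replicates 1 and 4.

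The abundant glutamine, small neutral and cationic amino acid carriers had group means that differed by less than the spread between libraries. Slc38a3, the system N glutamine transporter (ENSMUSG00000010064.15, chromosome 9, 107650634 to 107669530), measured 523, 825, 935 and 725 TPM in control replicates 1 to 4 and 565, 757, 690 and 757 TPM in Myc-labelled replicates 1 to 4. The lowest control lay below all Myc-labelled values and the highest above them, and the log2 difference (Myc-labelled minus control, here and below) was -0.10 ± 0.22 (SE), with a 95% interval of -0.57 to 0.38. Slc38a4, the system A carrier typical of liver (ENSMUSG00000022464.14, chromosome 15, 96994820 to 97055956), stood at 669, 805, 628 and 669 TPM in the control livers and 687, 780, 645 and 515 TPM in the Myc-labelled livers. Only replicate 4 of the Myc-labelled group fell outside the control range, and the log2 difference was -0.09 ± 0.19 (-0.50 to 0.33). Slc7a2, the cationic amino acid carrier that supplies arginine (ENSMUSG00000031596.15, chromosome 8, 40862396 to 40922308), measured 137, 184, 132 and 136 TPM in the control livers and 111, 167, 174 and 124 TPM in the Myc-labelled livers. Myc-labelled replicates 1 and 4 lay below every control and control replicate 2 above every Myc-labelled value, with the ranges overlapping in part, at a log2 difference of -0.04 ± 0.21 (-0.49 to 0.41).

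Slc38a2, the system A carrier that cells induce when amino acids run short (ENSMUSG00000022462.7, chromosome 15, 96687392 to 96699730), lay on the higher side in the Myc-labelled livers. It stood at 40.2, 51.8, 47.8 and 39.8 TPM in the control livers and 51.6, 61.2, 61.0 and 110 TPM in the Myc-labelled livers. The groups overlapped by 1 value, since Myc-labelled replicate 1 lay just under control replicate 2, and replicate 4 was far above the rest. The log2 difference was 0.60 ± 0.23 (0.09 to 1.11; unadjusted p = 0.0258, limma adjusted p = 0.9998). Without Myc-labelled replicate 4 it was 0.37. As a share of Slc38a4, a description that was not planned, Slc38a2 amounted to 5.95% to 7.60% in the control livers. It was 7.51%, 7.85%, 9.46% and 21.4% in Myc-labelled replicates 1 to 4. Myc-labelled replicate 4 held both the highest Slc38a2 and the lowest Slc38a4.

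The system L carriers among the members, Slc43a1 and Slc7a5, differed in opposite directions, neither past the threshold. Slc43a1 (LAT3; ENSMUSG00000027075.16, chromosome 2, 84838850 to 84863594) measured 10.996, 12.2, 9.78 and 12.5 TPM in the control livers and 5.82, 9.95, 7.75 and 5.56 TPM in the Myc-labelled livers. Of the latter, 3 lay below every control and replicate 2 just above the lowest control. Its log2 difference of -0.61 ± 0.19 (-1.03 to -0.18) had the smallest p of the members (unadjusted p = 0.00943, limma adjusted p = 0.9998), and was -0.39 with array weights. Slc7a5 (LAT1; ENSMUSG00000040010.10, chromosome 8, 121881150 to 121907694) stood at 1.63, 1.69, 1.04 and 2.38 TPM in the control livers and 3.85, 2.66, 1.48 and 3.32 TPM in the Myc-labelled livers. Replicates 1, 2 and 4 lay above all controls, while replicate 3 lay within their range. The log2 difference was 0.49 ± 0.25 (-0.07 to 1.05; unadjusted p = 0.0795, limma adjusted p = 0.9998), and 0.22 at a pseudocount of 5. The ratio of Slc43a1 to Slc7a5, a description chosen after their values were seen, was 5.26 to 9.38 in the control livers and 1.51, 3.75, 5.24 and 1.67 in Myc-labelled replicates 1 to 4.

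Slc3a2, the heavy chain that Slc7a5 and Slc7a11 need at the surface (ENSMUSG00000010095.13, chromosome 19, 8706882 to 8723369), was 18.3 to 34.8 times as abundant as Slc7a5 in each library. It measured 43.2, 58.9, 34.3 and 46.0 TPM in the control livers and 70.6, 50.1, 42.4 and 84.4 TPM in the Myc-labelled livers. Replicates 1 and 4 of the Myc-labelled group exceeded every control, and replicates 2 and 3 lay among them. The log2 difference was 0.41 ± 0.24 (-0.13 to 0.94), and it was 0.24 without Myc-labelled replicate 4. Slc3a2 is also made by leukocytes. The mean log2(TPM + 1) of neutrophil markers was highest in Myc-labelled replicates 4 and 1, at 4.57 and 3.97. It was lowest in control replicate 3, at 2.49. Slc3a2 was highest and lowest in the same libraries. This list was not among the planned relations, and no r was computed for it. By the same mean, ATF4 targets (4.95 and 4.86) and NRF2 targets (7.21 and 7.07) were also highest in Myc-labelled replicates 4 and 1. Kupffer cell and macrophage markers were highest in control replicates 4 and 2 (6.74 and 6.69). Of the 10 neutrophil markers 9 were tested and all 9 had positive differences, against 58% of all genes. At an unadjusted p under 0.05 by limma, 1.26% of all genes were higher and so were 2 of these markers. None of the markers passed the threshold and none was at 0 in all 8 libraries. Their summed level was 2990 to 6403 TPM in the control livers and 3830 to 6654 TPM in the Myc-labelled livers. That sum was highest in Myc-labelled replicate 3 and control replicate 1, where Slc3a2 stood at 42.4 and 43.2 TPM. The list includes Lcn2, which injured hepatocytes also make. The part of neutrophils in the level of Slc3a2 was not tested.

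The ASCT exchangers were low in these livers. Slc1a4 (ENSMUSG00000020142.12, chromosome 11, 20302180 to 20332713) stood at 1.56, 3.25, 5.80 and 3.20 TPM in the control livers and 5.65, 4.55, 3.40 and 6.62 TPM in the Myc-labelled livers. Its controls spread widely, with replicate 3 above 3 of the 4 Myc-labelled values, and the log2 difference was 0.50 ± 0.29 (-0.14 to 1.14). It moved to 0.73 without control replicate 3 and to 0.26 without control replicate 1, and was 0.26 at a pseudocount of 5 and 0.32 with array weights. Slc1a5, the glutamine exchanger often raised by Myc in dividing cells (ENSMUSG00000001918.17, chromosome 7, 16781340 to 16798274), measured 6.63, 7.77, 4.21 and 5.90 TPM in the control livers and 6.71, 10.6, 5.18 and 6.91 TPM in the Myc-labelled livers. Only replicate 2 of the Myc-labelled group lay above the controls, at a log2 difference of 0.22 ± 0.23 (-0.29 to 0.72). Leaving out Myc-labelled replicate 2 gave 0.0447 and leaving out replicate 3 gave 0.35, and leaving out control replicates 3 and 2 in turn gave 0.0731 and 0.32. It was 0.14 at a pseudocount of 5 and 0.57 with array weights.

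Slc7a11, the cystine importer that feeds glutathione synthesis (ENSMUSG00000027737.10, chromosome 3, 49892526 to 50443614), was far below 1 TPM in 6 of the 8 libraries. It stood at 0.0575, 0.205, 0.289 and 0.0908 TPM in the control livers and 0.189 and 0.132 TPM in Myc-labelled replicates 2 and 3. In Myc-labelled replicates 1 and 4 it reached 2.52 and 3.81 TPM, the only libraries above 1 TPM. Its mean was below the filter, so it was tested alone: the difference of group means on the log2(TPM + 1) scale was 0.92 (exact permutation p = 0.229, two-sided, where 4 against 4 cannot go below 0.0286). It was 0.54 without Myc-labelled replicate 4, 1.90 at a pseudocount of 0.1 and 0.33 at a pseudocount of 5. The 5 annotated genes that overlap it did not exceed 0.0801 TPM in any library. Gclc, the rate-limiting enzyme of glutathione synthesis, and Srxn1, a peroxiredoxin repair enzyme, both targets of NRF2, were highest in the same libraries: Gclc stood at 298 and 390 TPM there against 53.0 to 122 TPM in the other 6, and Srxn1 at 204 and 324 TPM against 34.3 to 92.0 TPM.

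Of the 9 members tested, 5 had positive and 4 negative differences, with a median of 0.22 against 0.04 over all 13055 genes, of which 58% were positive and 42% negative. None passed the threshold. At an unadjusted p under 0.05, 1 member was higher (Slc38a2) and 1 lower (Slc43a1), against 1.26% and 0.597% of all genes. No member had groups that did not overlap, against 0.935% of all genes with the Myc-labelled values above all controls and 0.322% with them below. The highest upper bound among their intervals, that of Slc1a4, was 1.14.

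**Figure D2:**
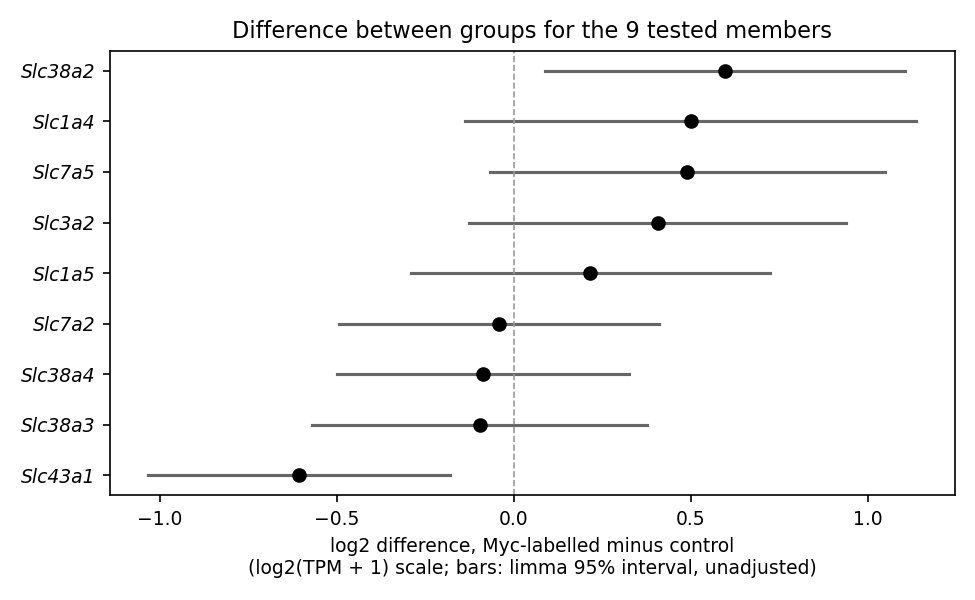
Log2 difference (Myc-labelled minus control, horizontal axis, log2(TPM + 1) scale) of the 9 tested members, with unadjusted limma 95% intervals from 4 libraries per group. Only the intervals of Slc43a1 (-1.03 to -0.18) and Slc38a2 (0.09 to 1.11) stay on one side of 0, and neither passes the adjusted threshold.

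Co-variation over the 8 libraries was measured for all 45 pairs of members by Pearson's r and Spearman's rho of log2(TPM + 1), with exact two-sided permutation of the libraries and adjustment over the 45. No pair passed an adjusted p of 0.05 by either measure, while 6 pairs had an unadjusted p under 0.05 by r and 4 by rho. Slc7a11 falls into separate sets of 6 low and 2 high libraries, so no r over all 8 is given for its 9 pairs. Over the 6 libraries under 1 TPM, a choice made after its values were seen, its highest r was with Slc38a3 (r = 0.91, rho = 0.943, exact permutation p = 0.0139 and 0.0167, adjusted p = 0.181 and 0.217 over 13 relations). All 6 levels lie between 0.0575 and 0.289 TPM.

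The dimer partners Slc7a5 and Slc3a2 had the highest r of the other 36 pairs (r = 0.84, exact permutation p = 0.00970, adjusted p = 0.184; rho = 0.905, exact permutation p = 0.00456, adjusted p = 0.103). Their r stayed between 0.76 and 0.91 with any 1 library left out, was 0.77 after the mean of each group was subtracted, and was 0.70 (exact permutation p = 0.0931) without Myc-labelled replicate 1 and control replicate 3, the libraries farthest from the median of Slc7a5. After median-of-ratios scaling their r was 0.75. Slc43a1 and Slc38a2 had the lowest (r = -0.71, exact permutation p = 0.0354, adjusted p = 0.319; rho = -0.619, exact permutation p = 0.115, adjusted p = 0.481). That relation was -0.36 after the group means were subtracted and -0.43 after median-of-ratios scaling. It was -0.47 without Myc-labelled replicate 4, and -0.67 (exact permutation p = 0.131) without Myc-labelled replicates 1 and 4. Slc43a1 and Slc1a4 gave r = -0.65 (exact permutation p = 0.0832, adjusted p = 0.372) and rho = -0.810 (exact permutation p = 0.0218, adjusted p = 0.327), with r = -0.28 without the same libraries.

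**Figure D3:**
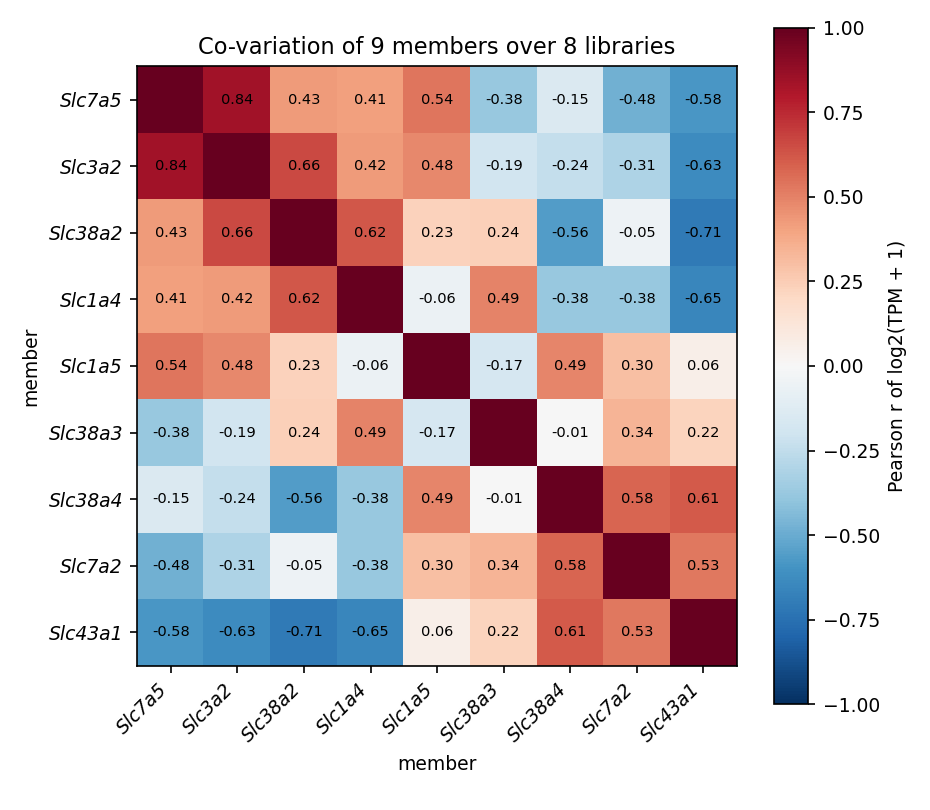
Pearson r of log2(TPM + 1) over the 8 libraries for each pair of 9 members, printed in each cell (red positive, blue negative; Slc7a11 left out). Slc7a5 and Slc3a2 reach 0.84, and Slc43a1 is negative with Slc38a2 (-0.71) and with Slc1a4 (-0.65); no pair passes the adjusted threshold.

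Each member was then set beside Myc, the mean of 20 tested ATF4 targets, the mean of 14 NRF2 targets and the mean of 19 hepatocyte markers, 40 relations adjusted together. Members and lists were chosen with earlier results of these data known, for which these p-values make no allowance. The gene listed as Myc had no relation past the threshold: over the 10 members its r ranged from -0.43 with Slc7a2 to 0.33 with Slc1a4 (exact permutation p = 0.290 and 0.420, adjusted p = 0.568 and 0.674; rho = -0.429 and 0.452, exact permutation p = 0.299 and 0.267). Slc7a5 was positively related to the ATF4 targets (r = 0.87, exact permutation p = 0.00243, adjusted p = 0.0486; rho = 0.929, exact permutation p = 0.00223, adjusted p = 0.0893). The ATF4 mean stood at 4.86 and 4.95 in Myc-labelled replicates 1 and 4 and at 3.81 to 4.22 in the other 6. Over those 6 libraries r was 0.68 (exact permutation p = 0.138) and rho was 0.886 (exact permutation p = 0.0333, adjusted p = 0.267). With 6 libraries 1 relation alone could not pass the adjusted threshold, since too few orders exist. Whether the call by r rests on replicates 1 and 4 is therefore undecided. With 1 library left out r stayed between 0.81 and 0.91, and after the group means were subtracted it was 0.84 (adjusted p = 0.123, exact permutation). The call held only without control replicate 3 (adjusted p = 0.0317) or Myc-labelled replicate 3 (adjusted p = 0.0397), both by exact permutation, and was lost without any other library. Without control replicate 1 it was lost although r was still 0.87 (exact permutation adjusted p = 0.147).

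Slc3a2 did not pass with the same targets (r = 0.86, exact permutation p = 0.00871, adjusted p = 0.116; rho = 0.833, exact permutation p = 0.0154, adjusted p = 0.154), and over the 6 libraries without Myc-labelled replicates 1 and 4 its r was 0.31. Slc1a4 and the NRF2 targets did not pass (r = 0.76, exact permutation p = 0.0314, adjusted p = 0.208; rho = 0.833, exact permutation p = 0.0154, adjusted p = 0.154). Slc7a11 with the NRF2 targets also passed by r and not by rho (exact permutation adjusted p = 0.0486 and 0.0913), over libraries that form separate sets, so no r over all 8 is given. By r that call was lost without any 1 of 6 of the 8 libraries (exact permutation adjusted p of 0.115 to 0.294), held without control replicate 3 or Myc-labelled replicate 3 (0.0456 and 0.0159), and was lost after the group means were subtracted (0.0992). By rho the relation did pass after that subtraction (exact permutation adjusted p = 0.0159). Over the 6 libraries in which Slc7a11 was under 1 TPM its r with those targets was 0.61 (exact permutation p = 0.214; rho = 0.771), and with the ATF4 targets -0.22 (exact permutation p = 0.681; rho = -0.314). Hepatocyte markers gave no relation past the threshold, and their mean log2(TPM + 1) varied little, from 10.97 to 11.37.

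**Figure D4:**
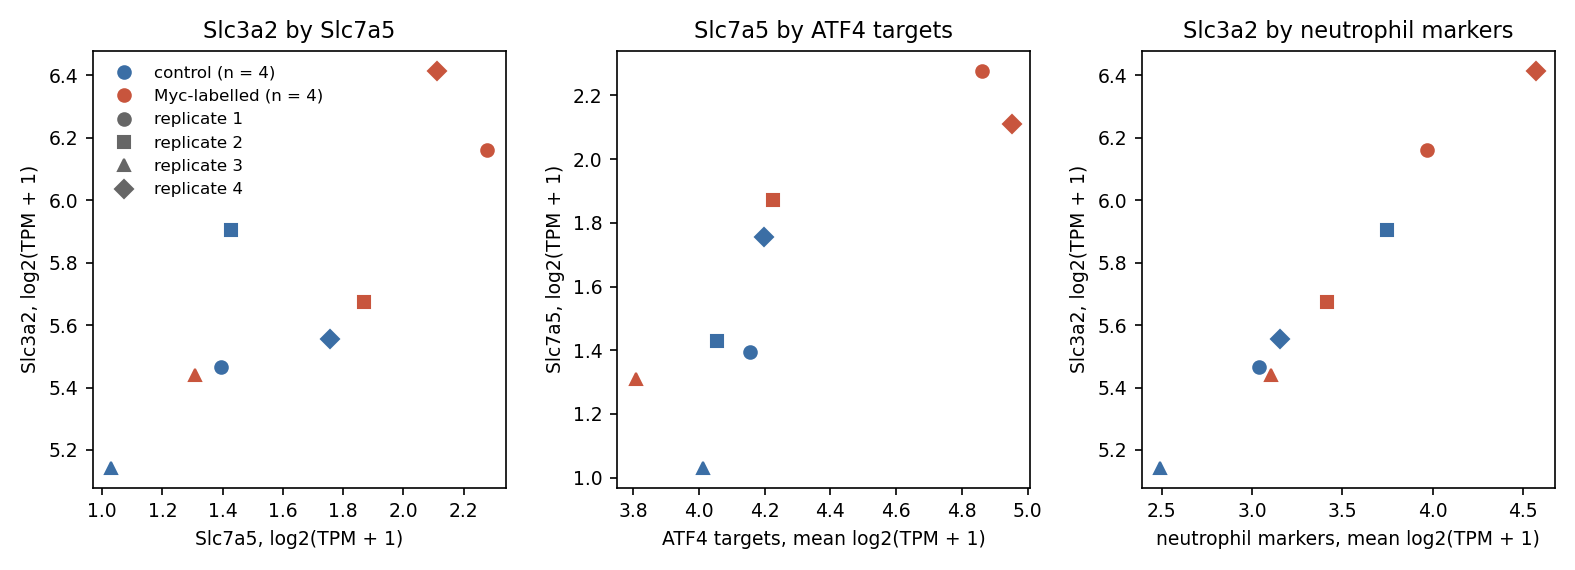
Slc3a2 against Slc7a5 (left), Slc7a5 against the mean of 20 ATF4 targets (centre) and Slc3a2 against the mean of 9 neutrophil markers (right), all as log2(TPM + 1), 1 point per library, coloured by group with marker shape for the replicate number. Myc-labelled replicates 1 and 4 lie at the upper right in all 3 panels, and the ATF4 mean has a gap between 4.22 and 4.86.

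The genes whose profile over the 8 libraries was most like that of a member were listed by Pearson r among the 10507 other genes that averaged 2 TPM or more (10508 for Slc7a11), as a description with no test. For Slc38a2 the nearest was Asns, the asparagine synthetase and a classical ATF4 target (r = 0.95), which stood at 4.04 to 9.41 TPM in the control livers and at 9.59, 9.22, 14.5 and 28.9 TPM in Myc-labelled replicates 1 to 4. Both genes were highest in Myc-labelled replicate 4. With the mean of the ATF4 targets Slc38a2 did not pass (r = 0.53, rho = 0.286, exact permutation p = 0.183 for r, adjusted p = 0.487). Without Myc-labelled replicate 4 that r was -0.11. Slc3a2 was nearest to the neutrophil genes Csf3r, the G-CSF receptor (r = 0.97), and S100a9, a calprotectin subunit (r = 0.97). S100a9 measured 3.59 to 31.9 TPM in the control livers and 30.02, 21.8, 8.76 and 73.9 TPM in Myc-labelled replicates 1 to 4. Slc7a5 was nearest to Cul2, a ubiquitin ligase scaffold (r = 0.97), and the initiation factor gene Eif1b (r = 0.96).

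Of the most abundant members, Slc7a2 was nearest to Tat, the tyrosine aminotransferase (r = 0.95), and to Pcbp4 (r = 0.91). Slc38a3 was nearest to Aldh1l1, a folate enzyme (r = 0.96), and Ablim1 (r = 0.93), and Slc38a4 to Rmnd5a (r = 0.98) and Mpv17l2 (r = 0.98). Slc43a1 was nearest to Dedd2 (r = 0.97) and to Urad, an enzyme of uric acid breakdown (r = 0.93). Slc1a4 lay close to Wdr6 (r = 0.98) and to the glutathione transferase gene Gsta1 (r = 0.97), an NRF2 target, and Slc1a5 to Ppargc1a (r = 0.89) and Tbc1d8 (r = 0.88). Slc7a11 shared its 2 high libraries with Zfand2a, at 13.7 and 14.5 TPM there against 5.75 to 7.53 TPM in the other 6, and with Tmem39a, at 16.2 and 16.9 TPM against 7.11 to 9.14 TPM.

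No further amino acid transporter passed the threshold. Of 32 further plasma membrane carriers 13 passed the filter, 6 with positive and 7 with negative differences (median -0.06), and 0 had an unadjusted p under 0.05. Slc6a13, a GABA and taurine carrier of hepatocytes, stood at 196 ± 62.4 TPM in the control livers and 162 ± 34.8 TPM in the Myc-labelled livers (SD, n = 4, here and below). The betaine carrier Slc6a12 measured 57.3 ± 20.3 against 48.1 ± 9.87 TPM, the taurine carrier Slc6a6 45.9 ± 12.4 against 39.7 ± 3.77 TPM, and the proton-coupled carrier Slc36a1 8.08 ± 1.63 against 9.22 ± 2.09 TPM. Their log2 differences lay within -0.24 to 0.17, the range of all 13.

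Over all 13055 genes, 58% were positive and 1.26% were higher at an unadjusted p under 0.05 by limma. Genes of the ATF4 response were positive in 14 of 20 tested members (median 0.22), with 0 past the threshold and 3 higher at an unadjusted p under 0.05. Phgdh, the first enzyme of serine synthesis, stood at 0.374 to 1.31 TPM in the control livers and at 2.74, 2.81, 0.365 and 3.83 TPM in Myc-labelled replicates 1 to 4. Psat1, the next enzyme, measured 1.23 to 4.87 TPM in the control livers and 12.5, 2.88, 2.54 and 12.6 TPM, and the stress factor Ddit3 3.99 to 7.78 TPM and 16.0, 6.71, 6.996 and 23.3 TPM. Psat1 and Ddit3 were thus high in the same libraries as Slc7a11, replicates 1 and 4. NRF2 targets were positive in 10 of 14 members (median 0.22), with 0 past the threshold and 1 at an unadjusted p under 0.05, Gsta1, at 14.2 to 149 TPM in the control livers and 290, 157, 70.2 and 412 TPM in the Myc-labelled livers. The transporter Abcc4 stood at 1.5006 to 3.63 TPM in the control livers and at 9.45, 3.88, 1.32 and 6.02 TPM.

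Marker lists of other cell types were summed in the same libraries, and over all genes 58% of differences were positive. Stellate and myofibroblast markers were positive in 11 of 12 members, with a summed level of 39.4 to 148 TPM in the control livers and 50.4 to 318 TPM in the Myc-labelled livers, highest by mean log2(TPM + 1) in replicate 1 (4.16). Cholangiocyte markers were positive in 9 of 10 (117 to 347 against 138 to 991 TPM), and Kupffer cell and macrophage markers in 1 of 11 (899 to 1819 against 697 to 1327 TPM). Sinusoidal endothelial markers were positive in 2 of 13 members (185 to 258 against 130 to 251 TPM). At an unadjusted p under 0.05 by limma, 2 sinusoidal markers were lower, against 0.597% of all genes. In the stellate and myofibroblast list 1 was higher, against 1.26% of all genes. None of the members of these lists passed the threshold, none was at 0 in all 8 libraries, and their part in the transporter levels was not tested. Erythroid markers were positive in 5 of 5 tested members (354 to 1773 against 735 to 1593 TPM) and periportal hepatocyte markers in 1 of 9 (7123 to 9640 against 6742 to 9544 TPM). Of the periportal markers 1 was lower at an unadjusted p under 0.05 by limma. Acinar markers of the pancreas, an organ that also makes Slc43a1, were at 0 in every library in 12 of 14 cases.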

How the data were processed

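Reads of 8 liver libraries, made from total RNA with an mRNA kit, were processed with HISAT2 and StringTie, and mm10 is the named build, all per the submitters' processing notes; versions and read strand are not given there. TPM and FPKM per gene were deposited by the authors. Coverage, an unscaled signal, was deposited beside them, and its modal ratio to FPKM gave aligned bases, assuming scaling by total aligned bases. Read counts were not used, so no counting interval is given. Repeated gene rows, 10 to 15 in each library, were added together. Member coordinates and IDs were the same as in GENCODE M21.

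The members and gene lists were chosen with earlier results of these data known. Group differences used limma 3.58.1 (R 4.3.3), with trended and robust variances, two-sided, on log2(TPM + 1) at a mean of at least 1 TPM. This scale understates changes of low genes. Permutations, correlations and motif searches used Python 3.11.15 with numpy 2.4.6 and pandas 2.3.3. The fit was tested on simulated data. Named were Myc, all members, up to 4 genes per list with the smallest p among those reaching 2 TPM in either group's mean, and the 2 nearest genes per member with an established symbol, and 1 gene so chosen is not reported here. Replicate numbers are shared between the groups, but same-numbered libraries did not deviate together (r of -0.0579 to 0.128 over genes), so no block was used. Alternatives were the pseudocount (0.1 and 5), the filter (none, and 5 TPM), FPKM, scaling, a fit with no variance trend, weights per library, the replicate number as a block, and each library left out in turn. The relations to Myc and the gene lists were run again only with group means subtracted and with libraries left out.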

Additional observations from a re-analysis of the deposited data

Results flagged for a closer look

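In 48 named genes, 96 groups of 4 libraries were searched for a library far from the other 3 (Dixon's ratio of gap to range above its 95% critical value), and chance alone marks about 1 in 20 groups. There were 8 such values. Among the members, Slc7a2 stood at 184.1 TPM in control replicate 2 (next value 136.9 TPM) and Slc38a2 at 110.4 TPM in Myc-labelled replicate 4 (next 61.22 TPM). Ttpal, one of the genes nearest to Slc38a2, stood apart in the same library, at 15.46 TPM. Nearest genes were picked by r over these same libraries, so their values are not independent of those of the member. The rate of 1 in 20 need not hold for them. In control replicate 1 the taurine carrier Slc6a6 was low, at 27.32 TPM (next 51.86 TPM). In control replicate 3 Eif1b, near Slc7a5, and Dedd2, near Slc43a1, were low, at 18.95 and 17.08 TPM. Ablim1, near Slc38a3, was low in control replicate 1 at 1.492 TPM (next 15.87 TPM) and in Myc-labelled replicate 1 at 2.416 TPM (next 10.39 TPM).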

How the results depend on the processing

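No member passed an adjusted p of 0.05 by limma under any of the 18 other settings, and no pair of members passed by exact permutation under any of its 14. All genes past the threshold stayed at 0, except 1 lower gene with array weights. At an unadjusted p under 0.05 the counts, 165 higher and 78 lower, became 429 and 214 with no filter, 93 and 42 at a mean of at least 5 TPM, 387 and 200 with array weights, and 88 to 574 higher and 47 to 184 lower with 1 library left out, the most higher genes without Myc-labelled replicate 3. With the replicate block they were 141 and 90, with 0 genes past the threshold, and Slc43a1 and Slc38a2 kept their directions. By r, the 2 relations to gene lists that passed became 0 after subtracting group means and 0 to 4 with 1 library left out. They also became 0 without the 2 libraries farthest from the median of the list. With the 6 libraries left there, 1 relation alone could not pass, since too few orders exist. The same limit held for the pairs of members when 2 libraries were left out. Small differences changed sign. With array weights Slc7a2 moved to 0.0873, Slc38a4 to 0.0574 and Myc to 0.23. With 1 library left out Slc7a2 ranged from -0.14 to 0.0738, Slc38a3 from -0.26 to 0.0181, Slc38a4 from -0.17 to 0.0246 and Myc from -0.91 to 0.43. The other 6 tested members kept their direction in each setting run. The cause of these changes was not tested. Without read counts, precision at the low levels of Slc7a11 and Slc7a5 cannot be stated.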

Other observations

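Genes of amino acid sensing, through which the supply of amino acids sets the activity of mTORC1, had 0 members past the threshold by limma. Of 22 tested, 13 had positive differences (median 0.05), and 1 had an unadjusted p under 0.05. That gene, Flcn, the folliculin gene that acts on the Rag GTPases, stood at 10.8, 11.7, 10.3 and 13.9 TPM in the control livers and at 14.9, 16.0, 14.4 and 15.7 TPM in the Myc-labelled livers, with every value of the latter above every control (log2 difference 0.37 ± 0.15, limma adjusted p = 0.9998). Of all 13055 genes, 0.935% were separated in this way, 1.26% were higher at an unadjusted p under 0.05 and 58% were positive. Sesn1, a sestrin that holds mTORC1 back, measured 43.8, 16.6, 15.4 and 21.2 TPM in the control livers and 14.1, 18.9, 11.8 and 11.7 TPM in the Myc-labelled livers. The Rag GTPase gene Rraga stood at 36.9 ± 1.76 against 44.6 ± 9.09 TPM and Lamtor3, of the complex that anchors it, at 18.7 ± 3.40 against 22.7 ± 5.45 TPM.

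Enzymes that use the transported amino acids were positive in 4 of 12 tested genes (median -0.06), with 0 past the threshold or an unadjusted p of 0.05. The alanine aminotransferase Gpt stood at 400 ± 90.1 against 334 ± 71.4 TPM. Arginase Arg1 measured 2899 ± 291 against 2630 ± 751 TPM, with its lowest value, 1544 TPM, in Myc-labelled replicate 4. The branched-chain aminotransferase Bcat2 stood at 26.6 ± 4.20 against 24.2 ± 5.41 TPM.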
